A study of Mus musculus with 30 samples.

Results

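Bdnf, which encodes brain-derived neurotrophic factor (BDNF), the related ligand gene Ntf3 and the neurotrophin receptor genes Ntrk2, Ntrk3 and Ngfr were followed in cultured embryonic mouse telencephalon to which BDNF protein had been added. The members were all probe sets whose only gene symbol in the platform annotation is one of these 5 symbols. That gave 11 of 22690 probe sets on the array: 2 for Bdnf, 2 for Ntrk2, 4 for Ntrk3 and 3 for Ngfr. Ntf3 was matched by 0 probe sets and is not analysed here. Each probe set is described apart, because the brightness of one cannot be set against that of another.

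The study crossed heterozygous Xbp1 mice and took telencephalon at embryonic day 12.5. Tissue of 4 Xbp1 +/+ embryos was combined into one pool and tissue of 6 Xbp1 -/- embryos into another, and each pool was plated at low density into 15 dishes in serum-free medium. Each pool gave 3 conditions of 5 dishes: basal (no BDNF, lysed on day 4 in vitro), 24 h (BDNF at 100 ng per ml from day 3, lysed on day 4) and 48 h (BDNF at the same dose from day 3, lysed on day 5). There was therefore no untreated dish of day 5, and hours of BDNF and day of culture cannot be told apart at 48 h. Each genotype came from a single pool, so the p-values reflect how much dishes of one pool varied, and genotype and pool cannot be told apart.

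Neurotrophins are secreted growth factors that regulate neuronal survival, maturation and synaptic function. BDNF signals through the tyrosine kinase TrkB, the product of Ntrk2, while neurotrophin-3 (Ntf3) is the main ligand of TrkC, the product of Ntrk3; the p75 receptor, the product of Ngfr, binds all neurotrophins and their uncleaved precursors. The Bdnf gene has several alternative first exons, each with its own promoter, and neuronal activity and CREB family factors are known to act on some of them. Xbp1 encodes a regulator of the unfolded protein response, a program that expands the capacity of the endoplasmic reticulum to fold secreted proteins.

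The RefSeq promoter table of the assembly GRCm38.p6 held 7 start sites for Bdnf, 2 for Ntf3, 1 for Ntrk2 and 1 for Ngfr. The 250 bases before each start were searched on both strands for the cyclic AMP response element (CRE, TGACGTCA), its half-site (TGACG), an E-box (CACGTG), an AP-1 site (TGACTCA) and an EGR site (GCGNGGGCG). These letters are found before 1.55%, 17.8%, 6.02%, 4.46% and 4.70% of all 32851 windows of that length, in the same order, and a full CRE also counts as a half-site. Of the 7 Bdnf windows, 1 held a match, and of the 2 Ntf3 windows, 1 held an E-box; the Ntrk2 and Ngfr windows held none of these letters. In start 3 the half-site lies on the other strand, where it reads CGTCA on the printed strand, from 35 to 31 bases before the start. The window before the most upstream start and the window with the half-site are shown because Bdnf is the member whose RNA moved, with the half-site in capitals.
Bdnf start 1, chr2:109674450-109674699, plus strand: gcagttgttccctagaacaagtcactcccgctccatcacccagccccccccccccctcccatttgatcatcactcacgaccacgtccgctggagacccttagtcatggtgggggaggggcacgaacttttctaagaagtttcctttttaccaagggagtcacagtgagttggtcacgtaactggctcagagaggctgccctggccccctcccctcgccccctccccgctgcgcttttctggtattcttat
Bdnf start 3, chr2:109692186-109692435, plus strand: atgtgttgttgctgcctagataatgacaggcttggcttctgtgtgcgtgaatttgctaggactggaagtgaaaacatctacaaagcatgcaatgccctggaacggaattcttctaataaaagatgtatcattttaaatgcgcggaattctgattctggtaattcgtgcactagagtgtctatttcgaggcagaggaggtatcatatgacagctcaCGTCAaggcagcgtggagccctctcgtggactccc
The array cannot tell which start a Bdnf transcript came from, so neither window is tied to the values that follow. No match in the other Bdnf windows says only that these letters are not in those 250 bases.

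Signals are given as log2 of the array intensity divided by the median of that array, so that a value of 0 is a probe set as bright as the array's median probe set. The median intensity of the 30 arrays lay between 81.9 and 138.5. Signals under 0.1 of the median were set to that floor, which is -3.32 on the log2 scale. Of the 11 member probe sets, 6 were above the floor on all 30 arrays. The other 5 (Ntrk2 1420837_at, Ntrk3 1425070_at and 1426003_at, Ngfr 1421241_at and 1450177_at) were below it on 18 to 29 of the 30 arrays and are given no order or fold.

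For the arrays as a whole, the signal of Xbp1 itself did not check the genotype, since the labels do not state which stretch of the gene is deleted. Of its 4 probe sets, 1420011_s_at was higher in knockout than in wild-type dishes at basal (1.09 ± 0.10, adjusted p = 7.83e-09) and, by 1.05 and 0.85, at 24 h and 48 h. 1437223_s_at was higher by 0.22 at basal (adjusted p = 0.00646); its differences at 24 h and 48 h (0.07 and 0.10), and those of 1420886_a_at (-0.01 to 0.14) and 1420012_at (-0.36 to 0.04), did not pass. All 10 neuronal markers (among them Tubb3, Map2 and Snap25) were above the floor on most arrays, with a summed signal of 258.2 to 345.1 times the array median. The ratio of the Gapdh 3' to 5' control signals, which tracks how complete the labelled RNA was, ran from 2.17 to 2.68 in the 48 h dishes and from 2.57 to 3.05 in all others. Changes of RNA per cell and of the number of cells of a type cannot be told apart in such bulk samples.

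Bdnf RNA was higher in every BDNF-treated dish than in every basal dish of its genotype, in both of its probe sets, at 24 h and at 48 h. By the brighter probe set, 1422168_a_at, it rose 1.79-fold at 24 h and 2.78-fold at 48 h in wild-type cultures, and 3.42-fold and 4.26-fold in knockout cultures. Knockout dishes exceeded wild-type dishes at 24 h in this probe set and not in the other, 1422169_a_at. Both probe sets were designed on a shared source sequence, so they are not independent measurements of the gene, and their signals correlated across the 30 dishes with r = 0.90.

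In 1422168_a_at, the 5 wild-type basal dishes read 0.30, 0.18, 0.24, 0.18 and 0.30 (log2 signal, replicates 1 to 5). After 24 h of BDNF the wild-type dishes read 1.13, 1.34, 0.93, 0.98 and 1.03. After 48 h they read 1.36, 1.62, 2.30, 1.56 and 1.72. The 3 wild-type groups thus did not overlap, and replicate 3 at 48 h was the highest dish of any group.

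The 5 knockout basal dishes read -0.45, 0.40, 0.09, 0.15 and 0.00, spreading on both sides of the wild-type basal dishes. The knockout 24 h dishes read 1.48, 1.74, 2.07, 1.80 and 1.99. The knockout 48 h dishes read 2.25, 1.87, 2.15, 2.16 and 2.24. Knockout dishes at 24 h lay above all wild-type dishes at 24 h, while at 48 h the ranges of the genotypes overlapped through wild-type replicate 3.

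**Figure D1:**
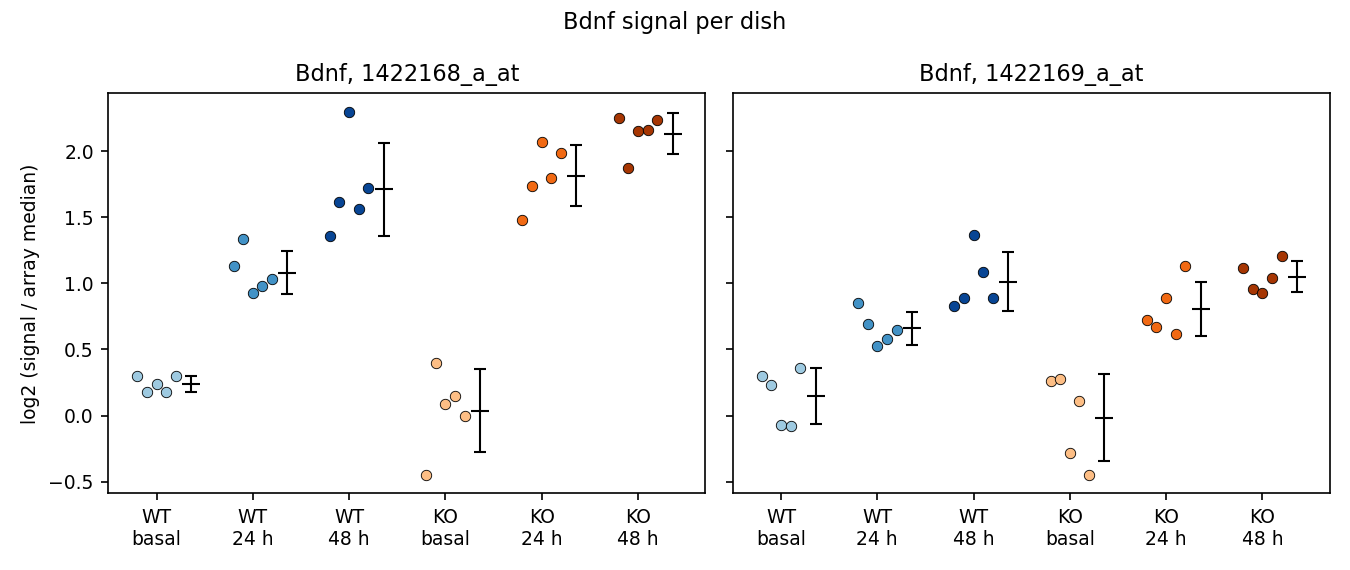
Bdnf log2 signal relative to the array median (vertical axis) in each of the 5 dishes of the 6 groups, one panel per probe set; points are dishes in the order of replicates 1 to 5, and the bar is the group mean with its SD. Treated dishes of both genotypes lie above all basal dishes, and in 1422168_a_at the knockout 24 h dishes (1.48 to 2.07) lie above the wild-type 24 h dishes (0.93 to 1.34).

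In the order of their means, the groups were knockout basal (0.04 ± 0.31, SD, n = 5), wild-type basal (0.24 ± 0.06), wild-type 24 h (1.08 ± 0.16), wild-type 48 h (1.71 ± 0.35), knockout 24 h (1.82 ± 0.23) and knockout 48 h (2.13 ± 0.15). Neighbours overlapped between the 2 basal groups, between wild-type 48 h and knockout 24 h, and between knockout 24 h and knockout 48 h. Wild-type basal and wild-type 24 h did not overlap, and neither did wild-type 24 h and wild-type 48 h.

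The linear model over all 30 arrays (limma) put the 24 h rise of 1422168_a_at in wild-type cultures at 0.84 ± 0.15 (log2, SE, n = 5 dishes a group; adjusted p = 4.60e-04). The 48 h rise was 1.47 ± 0.15 (adjusted p = 6.51e-08). In the knockout the rises were 1.78 ± 0.15 at 24 h (adjusted p = 6.50e-09) and 2.09 ± 0.15 at 48 h (adjusted p = 1.86e-10). Each of these 4 calls held with any 1 dish left out.

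The second probe set, 1422169_a_at, moved in the same directions by smaller amounts. The wild-type basal dishes read 0.30, 0.23, -0.07, -0.08 and 0.36, the 24 h dishes 0.85, 0.69, 0.53, 0.58 and 0.65, and the 48 h dishes 0.83, 0.89, 1.37, 1.09 and 0.89. The knockout basal dishes read 0.26, 0.28, -0.28, 0.11 and -0.45, the 24 h dishes 0.72, 0.67, 0.89, 0.62 and 1.13, and the 48 h dishes 1.12, 0.96, 0.93, 1.04 and 1.21. Treated dishes were again above all basal dishes of their genotype, while the 24 h and 48 h dishes of either genotype overlapped.

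The rises in 1422169_a_at were 0.51 ± 0.13 at 24 h (adjusted p = 0.0179) and 0.87 ± 0.13 at 48 h (adjusted p = 3.80e-05) in wild-type cultures. They were 0.82 ± 0.13 and 1.07 ± 0.13 in knockout cultures (adjusted p = 2.93e-04 and 3.46e-06). The wild-type 24 h call was lost without basal replicate 3 (adjusted p = 0.0517) or without basal replicate 4 (adjusted p = 0.0519), and with the values as deposited (adjusted p = 0.142). Each of the other calls held with any 1 dish left out.

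Across the 11 member probe sets, 2 were called in each of these 4 comparisons, both of Bdnf and both higher. Among all 20380 probe sets tested, 4.64% were higher at 24 h in wild type (7.32% called in either direction) and 12.5% at 48 h (21.1% in either direction). In the knockout, 2.90% were higher at 24 h (5.01% in either direction) and 9.87% at 48 h (14.5% in either direction). Among the marker lists, 4 of 10 neuronal markers were higher and 2 lower in wild-type dishes at 48 h. There 4 of 6 choroid plexus, 4 of 11 meningeal and mesenchymal, 3 of 9 progenitor and 3 of 5 erythroid markers were lower. Of 10 microglial markers 1 was higher and 4 lower, and of 7 oligodendrocyte lineage markers 2 were higher and 0 lower. In the knockout at 48 h, 3 of 10 neuronal markers were higher and 1 lower, and 3 of 11 mesenchymal, 2 of 9 progenitor, 2 of 5 erythroid and 0 of 6 choroid plexus markers were lower. At 24 h, 3 of 10 neuronal markers were higher in wild-type dishes, with 2 of 9 progenitor and 2 of 6 choroid plexus markers lower. In the knockout at 24 h, 2 of 10 neuronal markers were higher and 1 lower, and 2 of 9 progenitor markers were lower. Of 7 GABAergic neuron markers, 2 were higher at 24 h and 3 at 48 h in wild type. In the knockout 1 and 2 were higher, with 0 lower in either genotype. Of 11 cortical projection and subplate markers, 1 was higher and 3 lower at both times in wild type. In the knockout 1 was higher and 3 lower at 24 h, and 1 and 1 at 48 h. The part of these marker changes in the Bdnf rises was not tested.

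Groups of 5 that did not overlap and were higher after BDNF made up 4.14%, 7.58%, 2.92% and 7.68% of probe sets in these 4 comparisons, in the same order.

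Between 24 h and 48 h of BDNF, 1422168_a_at rose by a further 0.63 ± 0.15 in wild-type cultures (adjusted p = 0.00982), without overlap, as was so for 2.90% of probe sets that were higher at 48 h. In knockout cultures the difference was 0.32 ± 0.15 (adjusted p = 0.239). In 1422169_a_at the differences were 0.36 ± 0.13 (adjusted p = 0.101) and 0.25 ± 0.13 (adjusted p = 0.333). One member of 11 was called in wild type, where 7.52% of all probe sets were, and 0 in the knockout, where 3.59% were.

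The wild-type step from 24 h to 48 h kept its call with any 1 dish left out and lost it in 3 other settings. With the Gapdh ratio of each array as a covariate it was 0.44 ± 0.18 (adjusted p = 0.237), and with 48 h replicates 1 and 2 alone 0.41 ± 0.18 (adjusted p = 0.364). Fitted on the 10 arrays compared it kept its size and not the call (adjusted p = 0.0802). Calls over all probe sets in this comparison were 1532 in the main fit and 243, 106 and 512 in these 3 settings, in the same order. The setting with replicates 1 and 2 alone leaves fewer dishes in each 48 h group, which by itself can cost calls, here and wherever it is given below. The Gapdh ratio was lower in the 48 h wild-type dishes (2.40 to 2.62) than in the 24 h ones (2.67 to 3.05). The rises over basal at 48 h stayed past the threshold with the Gapdh ratio as a covariate, at 1.27 in wild type and 1.90 in knockout cultures.

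Without BDNF, Bdnf RNA did not differ past the threshold between the genotypes. The knockout minus wild-type difference was -0.20 ± 0.15 in 1422168_a_at (95% interval -0.50 to 0.10, adjusted p = 0.432). In 1422169_a_at it was -0.16 ± 0.13 (95% interval -0.44 to 0.11, adjusted p = 0.497). Of the 11 members 0 were called here, against 14.4% of all probe sets.

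After 24 h of BDNF, 1422168_a_at was 1.66-fold higher in knockout than in wild-type dishes (0.73 ± 0.15, adjusted p = 7.77e-04), and the call held with any 1 dish left out. The groups did not overlap, as was so with the knockout higher in 4.11% of probe sets. In 1422169_a_at the difference was 0.15 ± 0.13 (95% interval -0.13 to 0.42, adjusted p = 0.537), with overlapping dishes. The 2 probe sets were not tested against each other. With the Ntrk2 difference given further on, 2 of 11 members were called, against 13.5% of all probe sets.

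After 48 h the genotype difference was 0.42 ± 0.15 in 1422168_a_at (95% interval 0.12 to 0.72, adjusted p = 0.0618) and 0.04 ± 0.13 in 1422169_a_at (adjusted p = 0.962). The former passed the threshold without wild-type 48 h replicate 3 (0.57, adjusted p = 0.00384) and without knockout 48 h replicate 2 (0.48, adjusted p = 0.0408), and under 6 of the other settings. Of the 11 members 0 were called, against 12.3% of all probe sets.

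Whether the response itself differed between genotypes was tested as an interaction. In 1422168_a_at the 24 h response was larger in the knockout by 0.93 ± 0.21 (95% interval 0.51 to 1.36, unadjusted p = 1.22e-04), which did not pass after adjustment over all probe sets (adjusted p = 0.119). It passed in 3 of the alternatives (adjusted p over all of them from 0.0367 to 0.801), with quantile normalization (0.97, adjusted p = 0.0449), with the dimmest probe sets left out (adjusted p = 0.0490) and with 1 probe set per gene (adjusted p = 0.0367). The 48 h response differed by 0.62 ± 0.21 (adjusted p = 0.550).

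In 1422169_a_at the genotype differences in the response were 0.31 ± 0.19 at 24 h (95% interval -0.07 to 0.70, adjusted p = 0.898) and 0.20 ± 0.19 at 48 h (adjusted p = 0.940). None of the 11 members passed in either interaction, where 0.0343% and 0.0540% of probe sets did. At an unadjusted p under 0.05, 1422168_a_at alone among the members passed, at both times.

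Marker RNA of other cell types differed between the genotypes beside these values. All 11 meningeal and mesenchymal markers were higher in knockout dishes at basal and at 24 h, by medians of 1.41 and 1.19, and 10 of 11 were at 48 h. Their summed signal was 86.1 to 94.3 times the array median in wild-type 24 h dishes and 166.5 to 185.1 in knockout 24 h dishes. Summed choroid plexus markers were 134.3 to 159.1 and 10.5 to 26.5 in the same groups, with 2 of 6 genes higher and 2 lower. That gap lay in Ttr alone, at 127.9 to 153.3 and 3.0 to 19.8 times the array median, while the other 5 summed to 5.2 to 6.5 and 5.9 to 7.5. In the same comparison 5 of 7 GABAergic neuron markers were lower in the knockout and 0 higher. Of 11 cortical projection and subplate markers 2 were higher and 5 lower, and of 9 progenitor markers 2 and 4. Of 10 neuronal markers 0 were higher and 2 lower. None of the markers of either of the first 2 lists was below the floor on most arrays. The part of these differences in the Bdnf result was not tested.

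Of the receptors, Ntrk2 was seen by 1420838_at, and its signal moved little with BDNF in either genotype. Wild-type basal dishes read 2.08, 2.48, 2.39, 2.39 and 2.43, the 24 h dishes 2.13, 2.45, 2.37, 2.04 and 2.21, and the 48 h dishes 2.39, 2.12, 2.16, 2.28 and 2.31. Knockout basal dishes read 2.16, 2.36, 2.07, 2.24 and 2.23, the 24 h dishes 2.08, 2.08, 2.00, 1.86 and 1.94, and the 48 h dishes 2.04, 2.19, 2.04, 2.05 and 1.94. All wild-type groups overlapped each other, and so did each knockout group with its wild-type counterpart.

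The BDNF differences in Ntrk2 were -0.11 ± 0.08 at 24 h (95% interval -0.27 to 0.05) and -0.10 ± 0.08 at 48 h (-0.26 to 0.06) in wild type. In the knockout they were -0.22 ± 0.08 at 24 h (-0.38 to -0.06, adjusted p = 0.102) and -0.16 ± 0.08 at 48 h (adjusted p = 0.191). The knockout 48 h difference passed with quantile normalization (-0.25, adjusted p = 0.0427) and with 75th percentile scaling (-0.24, adjusted p = 0.0428). Both 48 h differences turned to 0.21 in wild type and 0.09 in the knockout with the values as deposited, where the median of all probe sets shifts by 0.246 and 0.205. The array measures neither receptor protein nor its phosphorylation.

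Ntrk2 was 1.19-fold lower in knockout than in wild-type dishes at 24 h (-0.25 ± 0.08, adjusted p = 0.0295). The groups overlapped, and the call was lost without wild-type 24 h replicate 2 or 3 or knockout 24 h replicate 4 or 5 (adjusted p of 0.0627 to 0.0943), with quantile normalization (adjusted p = 0.139), with 75th percentile scaling (adjusted p = 0.130), with the values as deposited (adjusted p = 0.869) and on the arrays compared alone (adjusted p = 0.0951). At basal and at 48 h the differences were -0.14 ± 0.08 (adjusted p = 0.262) and -0.20 ± 0.08 (adjusted p = 0.102). In the order of the means, all neighbouring groups overlapped, from 2.35 ± 0.16 (SD) in wild-type basal dishes to 1.99 ± 0.09 in knockout 24 h dishes.

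**Figure D2:**
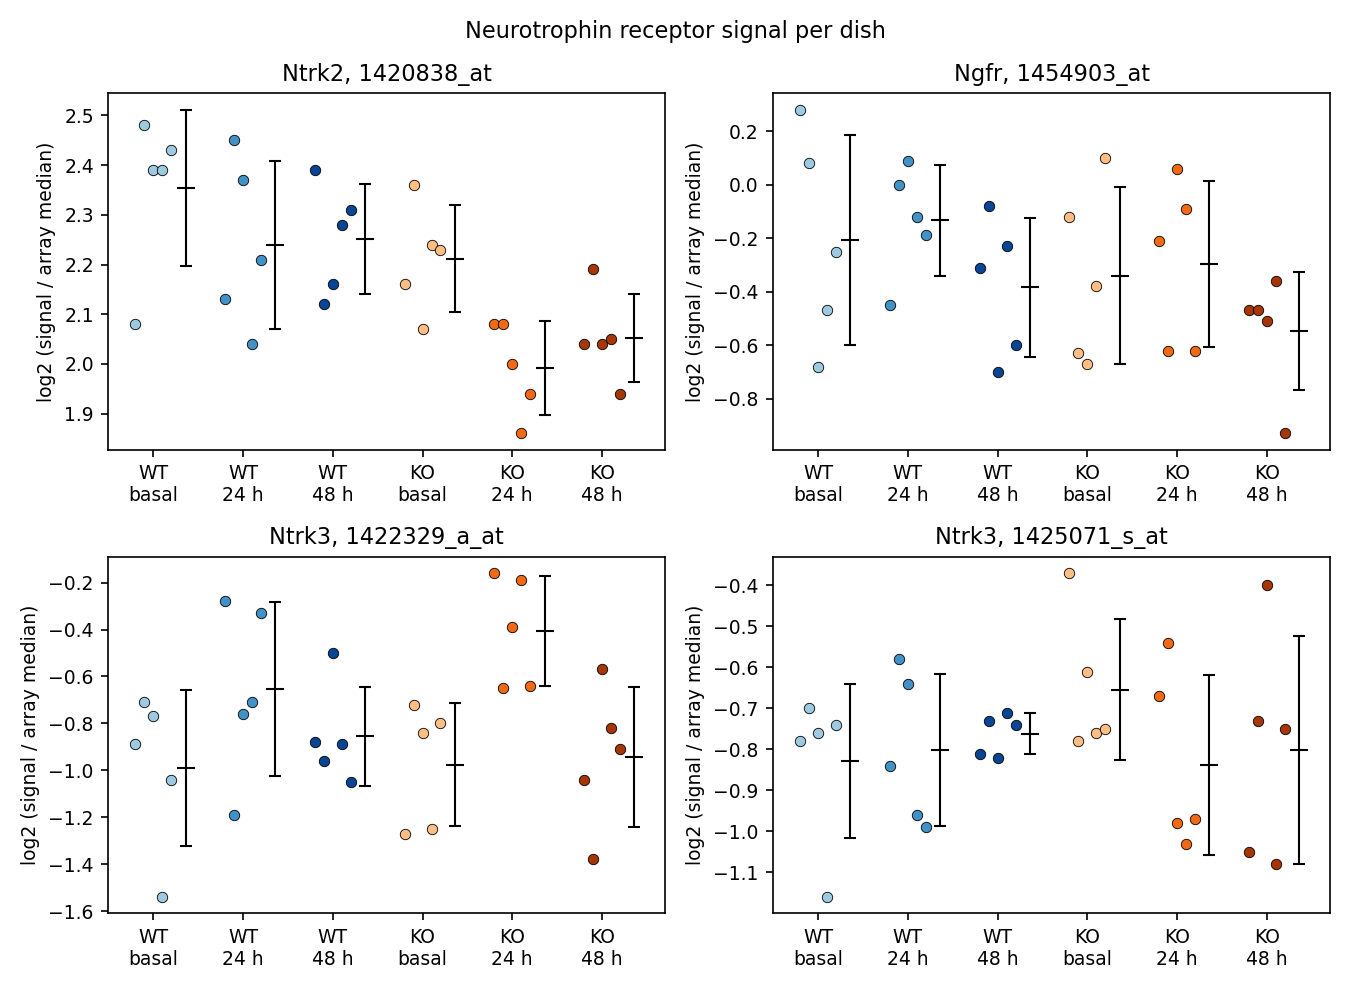
Log2 signal relative to the array median (vertical axis) of the 4 receptor probe sets above the floor on all arrays, in each of the 5 dishes of the 6 groups; points are dishes, bars are the group mean with its SD. Groups overlap in most panels, and the knockout 24 h dishes of Ntrk3 1422329_a_at (-0.65 to -0.16) lie above the knockout basal dishes (-1.27 to -0.72).

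Ntrk3 was seen above the floor by 1422329_a_at and 1425071_s_at, whose signals did not move together across the 30 dishes (r = -0.11). In 1422329_a_at the knockout basal dishes read -1.27, -0.72, -0.84, -1.25 and -0.80, and the knockout 24 h dishes -0.16, -0.65, -0.39, -0.19 and -0.64, without overlap. In this comparison 2.92% of all probe sets were higher without overlap. The difference of 0.57 ± 0.18 in 1422329_a_at did not pass the threshold (95% interval 0.19 to 0.95, adjusted p = 0.0704), and passed with the dimmest probe sets left out (adjusted p = 0.0444). At 48 h the knockout dishes read -1.04, -1.38, -0.57, -0.82 and -0.91, back over the basal range.

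In wild-type cultures 1422329_a_at read -0.89, -0.71, -0.77, -1.54 and -1.04 at basal, -0.28, -1.19, -0.76, -0.71 and -0.33 at 24 h, and -0.88, -0.96, -0.50, -0.89 and -1.05 at 48 h. These groups overlapped, with differences from basal of 0.33 ± 0.18 (adjusted p = 0.320) and 0.14 ± 0.18 (adjusted p = 0.676). The other probe set, 1425071_s_at, had group means between -0.84 and -0.65, and its differences over the 11 comparisons lay between -0.21 and 0.18, none past the threshold. In the knockout its means moved opposite to 1422329_a_at, from -0.65 ± 0.17 (SD) at basal to -0.84 ± 0.22 at 24 h, with overlapping dishes.

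Ngfr was seen by 1454903_at. Its group means ran from -0.13 ± 0.21 (SD) in wild-type 24 h dishes to -0.55 ± 0.22 in knockout 48 h dishes, with single dishes from -0.93 to 0.28, and all groups overlapped. Its differences lay between -0.25 and 0.07 over the 11 comparisons and none passed. Among the responses to BDNF against basal, the 95% interval reaching farthest from 0 ran from -0.59 to 0.17, at 48 h in the knockout.

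**Figure D3:**
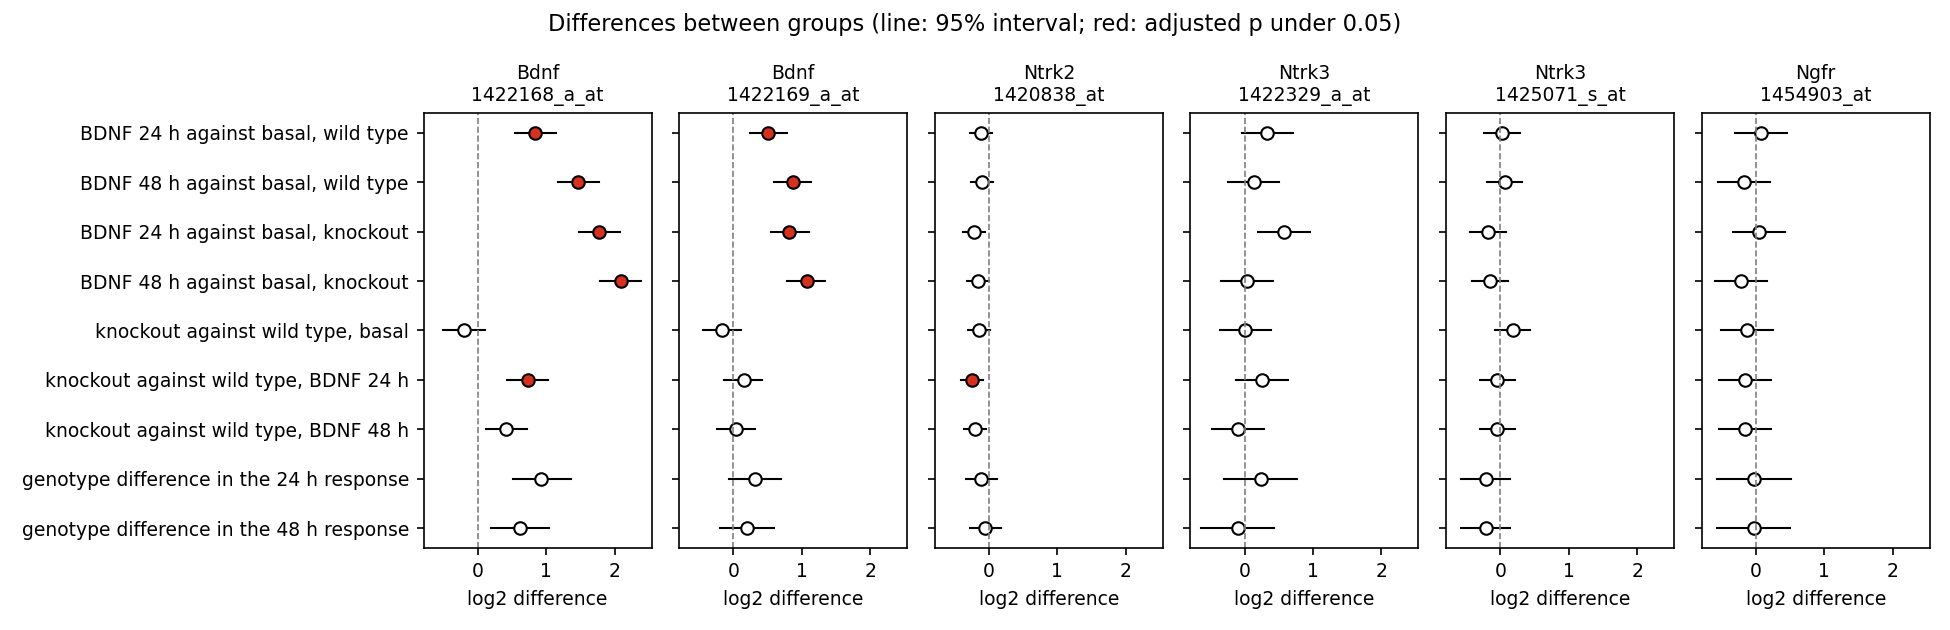
Log2 differences (horizontal axes, the same range in each panel) with 95% intervals for the 6 member probe sets above the floor on all arrays, in 9 comparisons; filled red points have an adjusted p under 0.05. Only the panels of Bdnf and 1 point of Ntrk2 (knockout against wild type at 24 h) hold filled points.

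The pattern of 1422168_a_at over the 30 dishes was compared with that of 7888 genes, each by its brightest probe set, among the upper 60% of probe sets by signal. The 5 genes with the highest Pearson correlation were Srxn1 (0.93), which encodes the antioxidant enzyme sulfiredoxin, Nptx1 (0.92), a secreted neuronal pentraxin, Scg2 (0.92), a granin of dense-core vesicles, and Nefm and Nefl (0.92 each), the medium and light neurofilament subunits. The dishes share their groups, so such values mostly describe shifts between groups and carry no test. The full order of groups was not common to all. The knockout 24 h mean lay above the wild-type 48 h mean in Bdnf (1.82 and 1.71) and Srxn1. It lay below in Nptx1, Scg2 (6.14 and 6.19), Nefm (3.09 and 3.29) and Nefl (4.51 and 4.61). Nptx1 had group means of -0.07, 1.38 and 1.82 at basal, 24 h and 48 h in wild-type dishes and of -0.05, 1.77 and 1.89 in knockout dishes. Srxn1 had means of 0.25, 1.15 and 1.35 in wild type and of 0.43, 1.44 and 1.74 in the knockout.

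**Figure D4:**
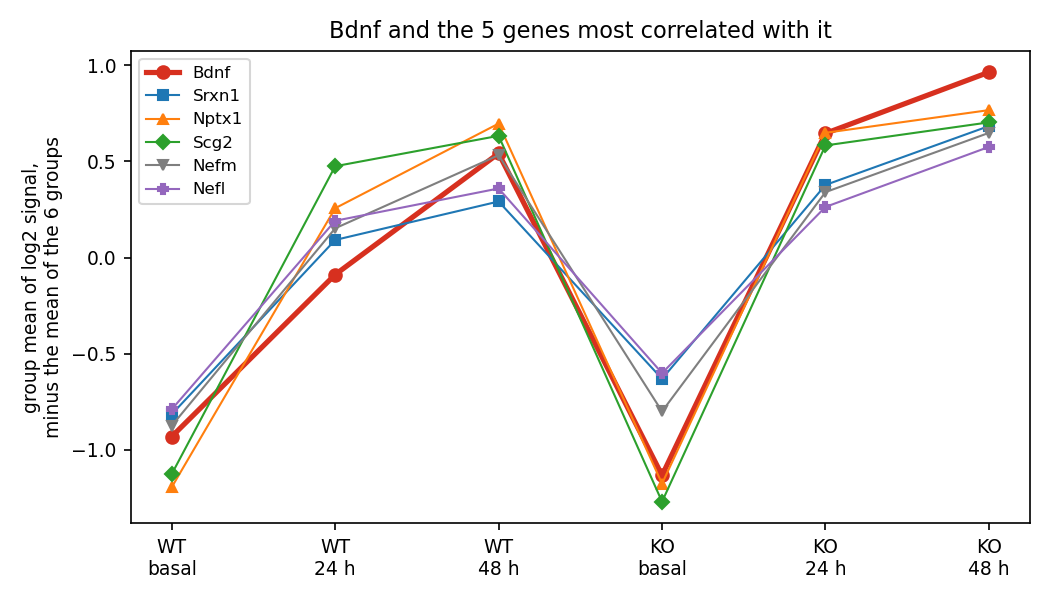
Group means of the log2 signal minus the mean of the 6 groups (vertical axis) for Bdnf 1422168_a_at and the 5 genes most correlated with it over 30 dishes. All 6 lines are lowest in both basal groups and highest in knockout 48 h dishes, and Bdnf has the widest gap between wild-type and knockout dishes at 24 h (1.08 and 1.82 on the unshifted scale).

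For Ntrk2 the closest genes were Fabp7 (r = 0.80), a fatty acid binding protein of radial glia, Id2 (0.78), Ezh2 (0.78), Hes6 (0.77) and Ezr (0.75). Correlations were lower for Ntrk3 1425071_s_at, from 0.63 (Phykpl) to 0.48 (Prickle1), and for Ngfr, from 0.65 (Gpank1) to 0.63 (Aimp2).

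Lists of genes that handle, transmit or control neurotrophins were read beside the members, each gene by its brightest probe set. Among all 12393 genes, 4.74% were higher and 3.36% lower in wild-type dishes at 24 h; at 48 h 12.0% were higher and 10.5% lower. In the knockout the shares were 2.99% and 2.55% at 24 h and 10.5% and 5.52% at 48 h. Between genotypes 6.30% of all genes were higher and 10.4% lower in the knockout at basal, 5.78% and 9.89% at 24 h, and 6.56% and 7.95% at 48 h, the shares against which each list's genotype counts are to be read.

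Genes for sorting, cleaving and releasing neurotrophins (20 measured) split in both directions after BDNF. In wild type 5 were higher and 2 lower at 24 h, and 5 higher and 6 lower at 48 h; in the knockout 1 was higher and 1 lower at each time. The list's median change was 0.10 at 24 h and -0.04 at 48 h in wild type, against 0.00 and -0.02 for all genes, and 0.03 and -0.05 in the knockout, against 0.00 and 0.00. A pair of proprotein convertases, enzymes that cut precursor proteins in the secretory pathway, differed between genotypes in opposite directions.

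Pcsk1, which encodes the convertase of regulated secretory granules, had means of -0.49 ± 0.15 (SD), 0.04 ± 0.13 and -0.11 ± 0.21 at basal, 24 h and 48 h in wild-type dishes. In knockout dishes the means were -0.84 ± 0.08, 0.06 ± 0.26 and 0.38 ± 0.12. Its rise was 0.53 ± 0.11 (SE) at 24 h in wild type (adjusted p = 0.00290; 0.0596 with the values as deposited) and 0.38 ± 0.11 at 48 h (adjusted p = 0.0156), while the knockout rose by 0.90 ± 0.11 (24 h) and 1.22 ± 0.11 (48 h; adjusted p = 5.93e-06 and 1.94e-08). Knockout minus wild type, Pcsk1 was lower at basal (-0.35 ± 0.11, adjusted p = 0.0321), alike at 24 h (0.02 ± 0.11, adjusted p = 0.976) and higher at 48 h (0.49 ± 0.11, adjusted p = 0.00245). The 48 h response, which takes in the basal difference, was larger in the knockout by 0.84 ± 0.16 (adjusted p = 0.0254).

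That difference for Pcsk1 lost the call without wild-type basal replicate 1 or 3, wild-type 48 h replicate 5, knockout basal replicate 4, or knockout 48 h replicate 1, 3 or 5 (adjusted p of 0.0533 to 0.0705). It also did with the lower floor (0.0611), the pseudocount (0.0573), the values as deposited (0.420) and 48 h replicates 1 and 2 alone (0.281), all as adjusted p. Its direction was the same in each.

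Pcsk5, a convertase of the constitutive pathway and of granules, had means of 0.34 ± 0.16 (SD), 0.99 ± 0.15 and 1.41 ± 0.13 in wild-type dishes and of 0.93 ± 0.15, 1.09 ± 0.14 and 1.17 ± 0.04 in knockout dishes. It rose by 0.65 ± 0.09 (SE) and 1.07 ± 0.09 in wild type (adjusted p = 1.58e-05 and 1.77e-09). In the knockout the differences were 0.16 ± 0.09 (adjusted p = 0.361) and 0.24 ± 0.09 (adjusted p = 0.0621). The 48 h response was smaller in the knockout by an interaction of -0.83 ± 0.12 (adjusted p = 0.00232), a call that held with any 1 dish left out and was lost with the values as deposited (adjusted p = 0.0669) and with 48 h replicates 1 and 2 alone (adjusted p = 0.164). At basal Pcsk5 was higher in the knockout by 0.59 ± 0.09 (adjusted p = 1.39e-05). Its genotype differences at 24 h (0.10 ± 0.09, adjusted p = 0.532) and 48 h (-0.24 ± 0.09, adjusted p = 0.0654) did not pass.

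**Figure D5:**
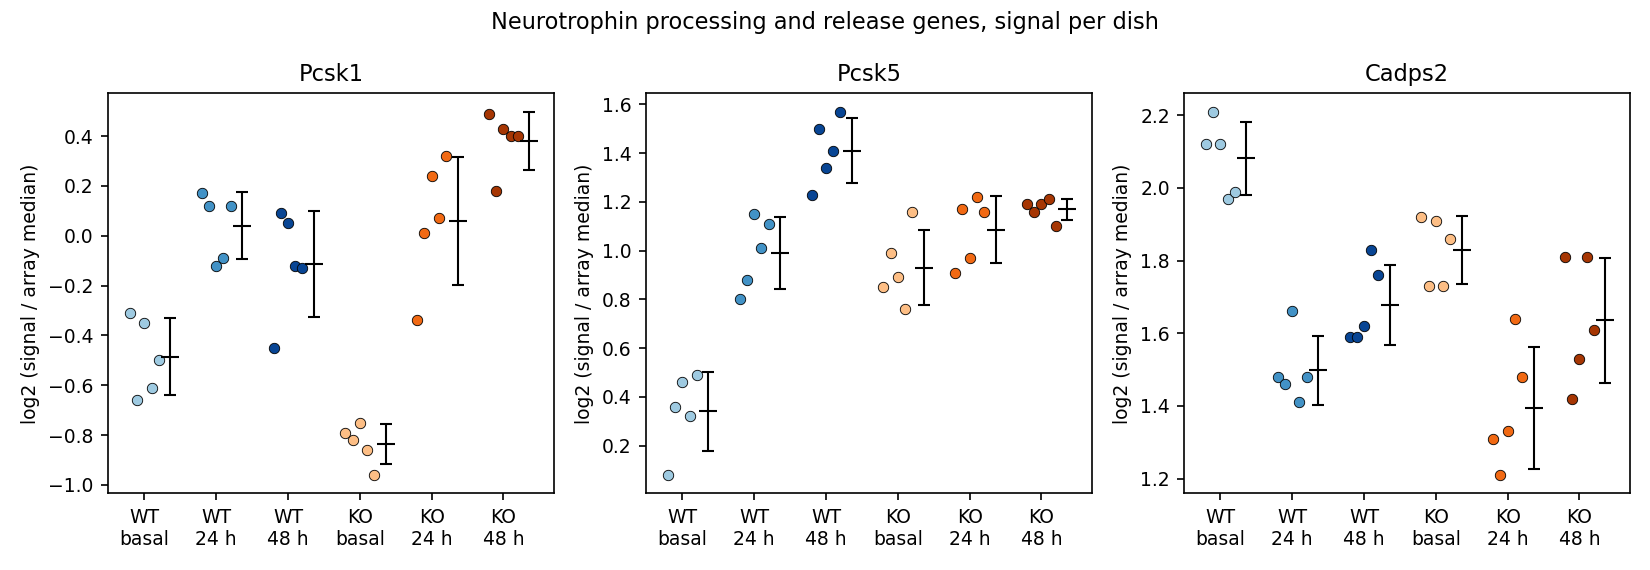
Log2 signal relative to the array median (vertical axes, which differ in range) of Pcsk1, Pcsk5 and Cadps2 in each of the 5 dishes of the 6 groups; points are dishes, bars are the group mean with its SD. Pcsk1 is highest in knockout 48 h dishes (mean 0.38) and Pcsk5 in wild-type 48 h dishes (mean 1.41), while Cadps2 is highest in basal dishes of either genotype.

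Cadps2, which encodes a priming factor for the release of dense-core vesicles, fell after 24 h by 0.58 ± 0.08 in wild-type dishes (adjusted p = 2.68e-05) and fell by 0.44 ± 0.08 in knockout dishes (adjusted p = 0.00138). At 48 h it was lower by -0.40 ± 0.08 in wild type (adjusted p = 6.83e-04), and the difference was -0.19 ± 0.08 in the knockout (adjusted p = 0.119). The calls at 24 h in the knockout and at 48 h in wild type were lost with the values as deposited. Sorl1, a sorting receptor, was lower in the knockout at 24 h (-0.43 ± 0.06, adjusted p = 5.69e-06) and at 48 h (-0.33 ± 0.06, adjusted p = 2.04e-04). Between the genotypes, 2 of the 20 genes were higher and 4 lower at basal, 0 and 2 at 24 h, and 1 and 2 at 48 h.

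Of 44 measured genes of Trk receptor signalling, 5 were higher and 1 lower in wild type at 24 h (4.74% and 3.36% of all genes). At 48 h 11 were higher and 3 lower (12.0% and 10.5% of all genes). In the knockout 2 were higher and 2 lower at 24 h (2.99% and 2.55%), and 6 higher and 2 lower at 48 h (10.5% and 5.52%). The medians were 0.06 and 0.03 in wild-type dishes and 0.05 and 0.08 in knockout dishes, against -0.02 to 0.00 for all genes. The largest called changes at 48 h in wild type were Shc3 (1.28 ± 0.24, adjusted p = 4.14e-04), Dok5 (1.22 ± 0.39, adjusted p = 0.0273) and Braf (0.90 ± 0.27, adjusted p = 0.0188). Shc3 and Dok5 were not among the upper 60% by signal. In the knockout Shc3 changed by -0.10 ± 0.24 at 48 h (adjusted p = 0.872), and its genotype difference in that response did not pass (-1.38 ± 0.34, adjusted p = 0.191). Grb2, the adaptor that links Trk receptors to Ras, rose at 24 h by 0.48 ± 0.06 in wild type (adjusted p = 7.26e-06) and 0.33 ± 0.06 in the knockout (adjusted p = 0.00129). Gab1, a docking adaptor, changed in wild type by -0.48 ± 0.08 at 24 h (adjusted p = 2.32e-04) and -0.62 ± 0.08 at 48 h (adjusted p = 2.76e-06). In the knockout it changed by -0.31 ± 0.08 at 24 h (adjusted p = 0.0208), a call lost without knockout basal replicate 5 or knockout 24 h replicate 1, with the values as deposited and on the arrays compared alone, and the 48 h difference was -0.20 ± 0.08 (adjusted p = 0.0889). At 48 h Gab1 was higher in knockout than in wild-type dishes by 0.44 ± 0.08 (adjusted p = 1.91e-04; 0.238 with 48 h replicates 1 and 2 alone), while its 48 h response did not differ past the threshold between genotypes (0.42 ± 0.11, adjusted p = 0.263).

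Between genotypes 2 of the 44 were higher and 7 lower at basal, 0 and 5 at 24 h, and 1 and 8 at 48 h. Rasgrf1, a calcium-responsive Ras exchange factor, was lower in the knockout at all 3 times, by -0.73 ± 0.11, -0.58 ± 0.11 and -0.54 ± 0.11 (adjusted p = 1.94e-05, 3.67e-04 and 8.40e-04). It rose from 24 h to 48 h in both genotypes, by 0.69 ± 0.11 in wild-type dishes (adjusted p = 6.78e-04; 0.0634 with 48 h replicates 1 and 2 alone) and by 0.73 ± 0.11 in knockout dishes (adjusted p = 7.16e-04). Nedd4l, a ubiquitin ligase, was lower at all 3 times as well, by -0.58 ± 0.06, -0.45 ± 0.06 and -0.52 ± 0.06 (adjusted p = 5.77e-08, 3.72e-06 and 3.83e-07). The Rasgrf1 difference between genotypes lost its call at 48 h with 48 h replicates 1 and 2 alone and at 24 h with the values as deposited, and Gab1 at 48 h with the values as deposited.

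Partners and signalling proteins of the p75 receptor (30 measured) had 2 higher and 1 lower in wild-type dishes at 24 h; at 48 h 3 were higher and 1 lower. In the knockout 1 was higher and 2 lower at 24 h, and 4 and 4 at 48 h. The medians were 0.11, 0.00, 0.00 and 0.01, against 0.00, -0.02, 0.00 and 0.00 for all genes. Lingo1, a co-receptor that can pair with p75, was higher in the knockout at 24 h (0.60 ± 0.14, adjusted p = 0.00496). Traf6, an adaptor of p75 signalling, was lower in the same comparison (-0.44 ± 0.07, adjusted p = 7.54e-05; lost with the values as deposited).

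Omg, which encodes a myelin glycoprotein bound by the Nogo receptor complex, had means of -1.43, -1.38 and 0.18 at basal, 24 h and 48 h in wild-type dishes. Its signal was at the floor in 3 of 5 knockout basal dishes and 4 of 5 knockout 24 h dishes, and had a mean of -1.32 at 48 h, so no fold is given against those groups. Wild-type dishes ranged from -2.96 to -0.41 at basal and from -0.56 to 0.70 at 48 h. The 48 h rise in wild type (adjusted p = 0.00595) was lost on the arrays compared alone, with the Gapdh ratio in the model, and with 48 h replicates 1 and 2 alone. Between genotypes 0 of the 30 genes were higher and 5 lower at basal, 1 and 3 at 24 h, and 0 and 2 at 48 h.

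Transcription factors and cofactors that act on Bdnf (30 measured) were led by immediate-early genes. In wild type 6 were higher and 0 lower at 24 h, and 6 higher and 6 lower at 48 h; in the knockout 5 and 0 at 24 h, and 5 and 4 at 48 h. The medians were 0.07 and 0.00 in wild-type dishes and 0.04 and 0.00 in knockout dishes, against -0.02 to 0.00 for all genes. Egr1 rose by 1.35 ± 0.09 and 1.03 ± 0.09 in wild type and by 1.14 ± 0.09 and 0.83 ± 0.09 in the knockout at 24 h and 48 h, with adjusted p from 4.33e-11 to 1.91e-07. Fos rose by 1.18, 1.28, 1.12 and 1.16 (each ± 0.08) in the same order, with adjusted p from 1.81e-11 to 7.11e-10.

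Egr2 rose by 1.92 ± 0.14 (24 h) and 1.48 ± 0.14 (48 h) in wild type (adjusted p = 9.03e-10 and 5.25e-08), and by 1.26 ± 0.14 and 1.10 ± 0.14 in the knockout (adjusted p = 2.48e-06 and 7.91e-06). At 24 h it was lower in the knockout by -0.56 ± 0.14 (adjusted p = 0.00966). That Egr2 call was lost with the values as deposited and on the arrays compared alone.

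Between genotypes 2 of the 30 factors were higher and 4 lower at basal, 2 and 5 at 24 h, and 2 and 4 at 48 h. Mef2c, an activity-responsive factor of neurons, was lower in the knockout by -1.01 ± 0.08, -1.05 ± 0.08 and -0.99 ± 0.08 at basal, 24 h and 48 h (adjusted p = 3.44e-10, 2.22e-10 and 5.36e-10). Its group means were 4.30 to 4.48 in wild type and 3.26 to 3.47 in the knockout. Nfatc4, a calcineurin-dependent factor, was higher in the knockout by 0.93 ± 0.12, 0.75 ± 0.12 and 1.02 ± 0.12 (adjusted p = 1.32e-06, 3.70e-05 and 2.82e-07). Rest, a repressor of neuronal genes, was higher in the knockout already at basal, by 0.36 ± 0.10 (adjusted p = 0.0181), and at 24 h by 0.54 ± 0.10 (adjusted p = 5.48e-04). In these genotype comparisons too, the mesenchymal and choroid plexus markers differed as given above, and their part was not tested.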

How the data were processed

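RNA of 30 dishes was hybridized singly to 30 Affymetrix Mouse Genome 430A 2.0 arrays. The deposited values are linear array intensity, computed by the authors with MAS5 per the submitters' processing notes (version not given in the sources used here). Division by the array median and a filter on present calls are described in the series design and are not visible in the deposited intensity values, whose medians differ and which list all 22690 probe sets. Here each array was divided by its own median, set to at least 0.1 of it and put on the log2 scale. In the platform annotation 20393 probe sets have 1 gene symbol, 691 several and 1606 none; 13 control probe sets were left out, and 20380 were tested.

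A linear model with 6 group means over all 30 arrays was fitted with limma 3.58.1 in R 4.3.3 (empirical Bayes with intensity trend), giving 11 two-sided comparisons. P-values were adjusted over all probe sets within each comparison (Benjamini-Hochberg, threshold 0.05); "rose", "fell", "higher" and "called" refer to that threshold where a count or p is given. The 5 arrays per group limit the precision. On simulated data for the wild-type 24 h comparison (20380 probe sets), 89 of 100 changes of 1.5-fold and 100 of 100 of 2-fold were recovered, with 3 false calls. The changes were placed only in probe sets brighter than the median one, with independent normal noise, so recovery in dimmer probe sets was not tested. Recovery at the signal of the Ntrk3 and Ngfr probe sets was not tested. All member probe sets are given. Of each list, genes named are among the up to 4 largest changes past the threshold in a comparison, plus the same genes' values elsewhere. A gene's likeness to a member is Pearson's r. The members, the lists, the settings and the use of 48 h replicates 1 and 2 alone were chosen with earlier results of these data known. Promoter windows come from RefSeq (GRCm38.p6); for Ntrk3 none was matched. Alternatives were other scalings (quantile, 75th percentile, none), a pseudocount of 0.1 or a floor of 0.01 of the median, the upper 60% of probe sets, the brightest probe set per gene, only the arrays compared, no intensity trend, a replicate block, the Gapdh ratio as a covariate, and each dish left out.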

Additional observations from a re-analysis of the deposited data

Results flagged for a closer look

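Of 36 sets of 5 dishes examined (6 member probe sets in 6 groups), 4 held a dish set apart from the other 4 by most of the range of its group; chance gives about 1 in 20 such sets. In Bdnf 1422168_a_at, knockout 48 h replicate 2 was the lowest at 1.87, with the others at 2.15 to 2.25. In Ntrk2 1420838_at, wild-type basal replicate 1 was the lowest at 2.08, with the others at 2.39 to 2.48. In Ntrk3 1425071_s_at, wild-type basal replicate 4 was the lowest at -1.16, with the others at -0.78 to -0.70. In Ngfr 1454903_at, knockout 48 h replicate 5 was the lowest at -0.93, with the others at -0.51 to -0.36.

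In the lists of 20, 44, 30 and 30 measured genes, the interaction test at 48 h called 2, where it called 0.0540% of all probe sets. They were Pcsk1, with a larger response in the knockout (0.84, adjusted p = 0.0254), and Pcsk5, with a smaller one (-0.83, adjusted p = 0.00232). Both responses take in a basal difference between genotypes, and both calls were lost in some of the settings given above.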

How the results depend on the processing

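The counts are of member probe sets past the threshold, out of 11, except that 6 were tested with the upper 60% of probe sets and 3 with the brightest probe set per gene. The count for knockout 48 h against basal was 3 with quantile normalization and with 75th percentile scaling, through Ntrk2. With the brightest probe set per gene and the upper 60% of genes, 1 Bdnf probe set stood for the gene and the counts became 1 for 24 h and for 48 h against basal in both genotypes, 1 for knockout against wild type at 48 h and 1 for the genotype difference in the 24 h response. With the values as deposited the counts were 1 for wild-type 24 h against basal, 2 for wild-type 48 h against 24 h and 1 for knockout against wild type at 24 h. The wild-type 48 h against 24 h count was 0 on only the arrays compared, with the Gapdh ratio in the model and with 48 h replicates 1 and 2 alone. The knockout against wild-type count at 24 h was 1 with quantile normalization, with 75th percentile scaling and on only the arrays compared. At 48 h it was 1 with quantile normalization, 75th percentile scaling, the pseudocount, the lower floor and the upper 60% of probe sets. The genotype difference in the 24 h response had a count of 1 with quantile normalization and with the upper 60% of probe sets. With a dish left out, the counts ranged from 1 to 2 for wild-type 24 h against basal, from 1 to 2 for knockout against wild type at 24 h, and from 0 to 1 for the same at 48 h; they did not move in the other 8 comparisons. Of these counts over all settings, 227 were within 1.5 times the main count and 30 were not. Some single values reversed: with the values as deposited, Ntrk2 1420838_at was 0.21 at 48 h in wild type and 0.09 in knockout dishes, while Ndn was 0.14 at 48 h in wild type and 0.04 from 24 h to 48 h; Bdnf 1422169_a_at, knockout against wild type at 48 h, was -0.01 without wild-type 48 h replicate 1 and -0.0017 without knockout 48 h replicate 5, and ranged up to 0.13 with another dish left out. The cause was not tested. Without scaling the median of all probe sets moved by 0.163 to 0.26 in the 4 comparisons of 48 h with an earlier time.

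The labels number the dishes 1 to 5 in each group and do not say that a number marks anything shared. The deviations of same-numbered arrays correlated at 0.03 on average (-0.05 to 0.16, over 0.1 in 8 of 75 pairs), against -0.01 for arrays of other numbers. Of 30 arrays, 13 correlated best with one of their own number, and the count expected by chance was not worked out. The numbers were not taken to pair the dishes because the labels do not say so, and whether same-numbered dishes share anything was not tested. With the replicate number as a block the member counts were unchanged: 2 in each comparison with basal and for knockout against wild type at 24 h, 1 for wild-type 48 h against 24 h and 0 in the other 5. Over all probe sets the block gave more calls, such as 1714 in place of 1492 for wild-type 24 h against basal. The genotype difference in the 24 h response, with 7 in both, was the exception. The number of arrays and, for the 5 dim member probe sets, the background limit what can be seen.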
